A study of Mus musculus with 77 samples.

Results

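Primary neurons were set against adult macroglia, the astrocytes and oligodendrocytes of the brain, in 8 of the 36 miRNA libraries of the series (77 samples in all). They are the libraries labelled as primary cortical neurons 1 and 2, primary hippocampal neurons 1 and 2, adult astrocytes 1 and 2 and adult oligodendrocytes 1 and 2, chosen by label alone. All 8 came from C57BL/6 mice with no treatment named, as total RNA extracted with the mirVana kit. The nCounter assay reads fluorescent barcodes, each tied to a mature miRNA, without amplification. The labels give no age for the neurons and do not say whether they were cultured, so cell type, age and any time in culture cannot be told apart. Nor do they say whether numbered libraries came from separate animals, so each p below measures only the spread between these libraries.

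MicroRNAs are short RNAs that pair with messenger RNAs, mainly through the seed at bases 2 to 8, and lower the output of their targets. miR-124 is the best known miRNA of neurons, miR-132 is induced by neuronal activity through the transcription factor CREB, and miR-376a belongs to the imprinted Dlk1-Dio3 cluster, a long array of miRNAs expressed from the maternal chromosome and known from neurons. On the glial side, miR-338 and miR-219 are known to drive oligodendrocyte maturation, and miR-125b and the miR-23, miR-26 and miR-29 families are known from astrocytes. let-7 and miR-9 are shared by many neural cells, let-7 increasing as cells leave the progenitor state.

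The mature sequences of the miRNAs on which the comparison turns are shown 5′ to 3′ with the seed in capitals, from RefSeq on GRCm38.p6. Where a probe name gives no arm, the arm known as the main product is shown, and the sequences of the assay's own probes were not used here. 16 of 18 names looked up were matched. The first set holds miRNAs with higher means in the neurons.
miR-132: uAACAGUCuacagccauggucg
miR-376a: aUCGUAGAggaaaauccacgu
miR-377: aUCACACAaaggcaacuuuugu
miR-539: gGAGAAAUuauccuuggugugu
miR-129-3p: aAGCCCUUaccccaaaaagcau
miR-489: aAUGACACcacauauauggcagc
These 6 have 6 different seeds. miR-376a (chr12:109723824-109723844, + strand), miR-539 (chr12:109728136-109728157, +) and miR-377 (chr12:109740553-109740574, +, within the span of the noncoding gene Mirg) lie in the Dlk1-Dio3 cluster. miR-132 lies at chr11:75173723-75173744 (+), miR-129-3p at chr2:94241376-94241397 (-) within the span of Mir670hg, and miR-489 at chr6:3721922-3721944 (-) within the span of the calcitonin receptor gene Calcr.

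The second set holds miRNAs with higher means in macroglia, the first 3 of them known from particular cell types.
miR-204: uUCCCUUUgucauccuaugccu
miR-338-3p: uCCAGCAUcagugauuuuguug
miR-126-3p: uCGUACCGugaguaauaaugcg
miR-9: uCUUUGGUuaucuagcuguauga
miR-125b-5p: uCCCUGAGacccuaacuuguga
miR-125a-5p: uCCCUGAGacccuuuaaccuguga
let-7b: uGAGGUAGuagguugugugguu
let-7c: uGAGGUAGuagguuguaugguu
let-7g: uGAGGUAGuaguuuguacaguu
The 3 let-7 members share the seed GAGGUAG, and miR-125a-5p and miR-125b-5p share CCCUGAG. miR-204 (chr19:22750610-22750631, +) lies within the span of the ion channel gene Trpm3, miR-338-3p (chr11:120014781-120014802, -) within that of the kinase gene Aatk, and miR-126-3p (chr2:26591402-26591423, +) within that of the endothelial gene Egfl7. miR-9 has 3 copies, on chromosomes 3, 7 and 13.

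The deposited values are scaled counts rounded to whole numbers, and the background limit of a library was set at the mean plus 2 SD of its 33 probes for viral miRNAs, whose targets mouse cells lack. Recovered totals were 11493 to 20612 counts in the macroglia and 3699 to 14963 in the neurons. The limit lay at 58.1 to 81.1 in macroglia, at 96.4 and 109.0 in the cortical neurons, at 258.6 in hippocampal neurons 1 and at 51.9 in hippocampal neurons 2. Of 566 mouse miRNAs, 70 to 78 were above it in the macroglia, 51 and 65 in the cortical neurons, 18 in hippocampal neurons 1 and 125 in hippocampal neurons 2. Hippocampal neurons 1 stood apart: 160 of its 566 miRNAs had a single count, and its correlation with hippocampal neurons 2 was -0.04, against 0.73 for the cortical pair, 0.90 for the oligodendrocytes and 0.92 for the astrocytes (log2 values of 112 miRNAs). The comparisons of neurons with macroglia are therefore given with and without it. Libraries of the same cell type differed by more than counting noise (chi-square test), so none was taken for a library deposited a second time, which does not show that they came from separate animals.

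The neuronal label was checked against its marker miRNAs. The values of miR-124 were 101 and 111 in astrocytes, 9 and 34 in oligodendrocytes, 139 and 30 in cortical neurons, 16 in hippocampal neurons 1 and 331 in hippocampal neurons 2. Cortical neurons 1 and hippocampal neurons 2 were thus above every glial library, while cortical neurons 2 and hippocampal neurons 1 were below both astrocyte libraries and below their own limits. The mean difference of neurons over macroglia was 0.56 on the log2(value + 10) scale, and -0.11 without hippocampal neurons 2 (two-sided exact permutation test, p = 0.571 and 0.943). In bulk RNA, fewer cells of a type and less miRNA in each cell cannot be told apart.

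miR-132 read 121 and 179 in astrocytes, 74 and 126 in oligodendrocytes, 263 and 74 in cortical neurons, 267 in hippocampal neurons 1 and 544 in hippocampal neurons 2. All neuron libraries except cortical neurons 2 were above the highest glial value. miR-376a read 161 and 111 in astrocytes, 500 and 806 in oligodendrocytes, 1724 and 283 in cortical neurons, 141 in hippocampal neurons 1 and 1489 in hippocampal neurons 2. Cortical neurons 1 and hippocampal neurons 2 exceeded every glial library, but the oligodendrocytes exceeded the other two neuron libraries.

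For miR-132 the difference was 0.91 (exact permutation p = 0.257) and for miR-376a 0.93 (p = 0.4). Without hippocampal neurons 1 the differences were 1.13 for miR-124, 0.85 for miR-132 and 1.58 for miR-376a, with exact permutation p of 0.343, 0.343 and 0.171. The smallest p either design can give is 0.0286. With these libraries the difference between the sides was not larger than the spread between them for any of the 3 markers. Leaving out cortical neurons 2 instead raised the miR-132 difference to 1.42, with the 3 remaining neuron libraries above all glia (exact permutation p = 0.029, the smallest possible). Leaving out any other library gave 0.51 to 1.09. Cortical neurons 2 was the only neuron library not above all glia for miR-132, so the smallest p followed from leaving it out. In hippocampal neurons 1, miR-132 at 267 was 17 recovered counts, close to that library's limit of 258.6.

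**Figure D1:**
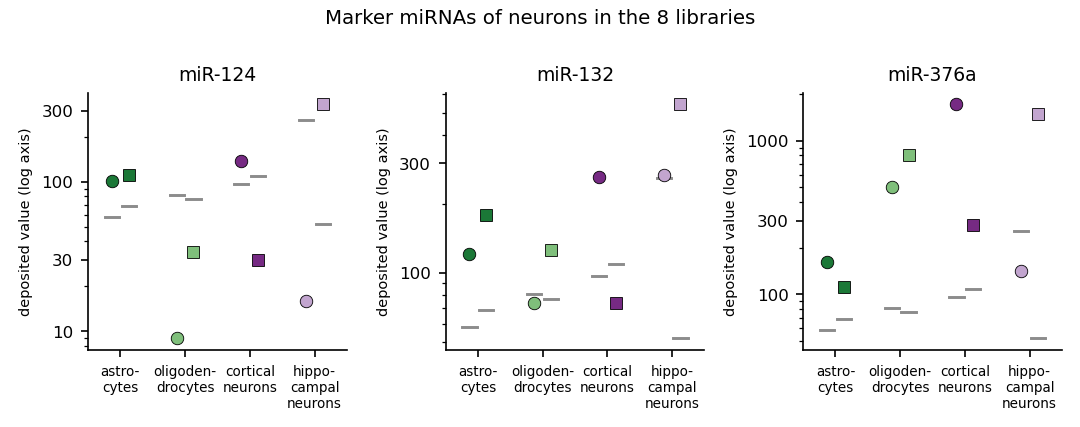
Deposited values (log axis) of miR-124, miR-132 and miR-376a in each of the 8 libraries, circles for library 1 and squares for library 2 of each cell type, with the library's own background limit as a grey bar. Cortical neurons 1 and hippocampal neurons 2 are above every glial library for all 3, while cortical neurons 2 is at 30, 74 and 283.

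A miRNA was tested across the sides if it was above the limit in at least 2 of the 8 libraries, which 112 of 566 were. With 4 libraries against 4, limma with Benjamini-Hochberg adjustment called 0 of 112 miRNAs (0%) at an adjusted p under 0.05, and 17 (15.2%) had an unadjusted p under 0.05. Without hippocampal neurons 1, 0 were called (0%) and 12 (10.7%) had an unadjusted p under 0.05. Leaving out hippocampal neurons 2 from the 8 libraries gave 4 calls (miR-181a, miR-151-5p, let-7b and let-7g), and leaving out oligodendrocytes 1 or 2 gave 3 each (miR-126-3p and miR-204 with miR-151-5p or miR-9), all lower in the neurons. Leaving out both hippocampal libraries gave 1 (let-7g, also lower). For miR-151-5p, let-7b and let-7g, no neuron library except hippocampal neurons 2 was above its limit. Without that library they were tested only through glial libraries, so the filter set their direction. The fit counts differences between astrocytes and oligodendrocytes, and between cortical and hippocampal neurons, as spread. When each cell type had its own mean and the spread came from pairs of libraries of all 6 cell types in the same set, 3 were called higher (2.68%) and 9 lower (8.04%) in the neurons, 10.7% of those tested. Without hippocampal neurons 1 that fit called 14 higher (12.5%) and 15 lower (13.4%), 25.9% in all. That fit compares these 4 cell types as sampled, not neurons with macroglia at large.

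Without a model, the neurons were above all macroglia for 5 miRNAs (4.46%) and below all for 3 (2.68%), 7.14% of 112. Without hippocampal neurons 1 they were above for 6 (5.36%) and below for 4 (3.57%), 8.93% in all. The 6 higher ones were miR-129-3p, miR-301a, miR-322, miR-489, miR-539 and miR-377, and the 4 lower ones miR-126-3p, miR-151-5p, miR-204 and miR-1944. miR-301a, miR-489 and miR-151-5p belong to no list set for this work and are named because of their values. For miR-377 and miR-1944 the groups overlapped once hippocampal neurons 1 was included.

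Among the miRNAs higher in the neurons, miR-377 of the Dlk1-Dio3 cluster read 50 and 33 in astrocytes, 106 and 113 in oligodendrocytes, 274 and 171 in cortical neurons, 94 in hippocampal neurons 1 and 188 in hippocampal neurons 2. The neuron libraries other than hippocampal neurons 1 were above all glia, at 211 ± 55.2 (SD, n = 3) against 75.5 ± 40.0 (SD, n = 4). The log2 difference was 1.48 ± 0.44 SE (limma adjusted p = 0.16, and 2.9e-06 with 1 mean per cell type). With hippocampal neurons 1 it was 1.21 ± 0.50 (adjusted p = 0.24, and 0.022 with 1 mean per cell type). miR-539, from the same cluster, read 46, 49, 77 and 59 in the glia and 107, 208, 94 and 86 in the neurons, the last being hippocampal neurons 2. Its difference was 0.92 ± 0.45 with 4 libraries and 1.01 ± 0.35 without hippocampal neurons 1 (adjusted p = 0.30 and 0.21).

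miR-129-3p, a miRNA known from neurons, read 52 and 65 in astrocytes, 77 and 52 in oligodendrocytes, 139 and 134 in cortical neurons, 251 in hippocampal neurons 1 and 118 in hippocampal neurons 2. All 4 neuron libraries were above the glia, 3 of them above their limits, and no glial library was above its own. The difference was 1.21 ± 0.47 with 4 libraries and 0.98 ± 0.29 with 3 (adjusted p = 0.20 and 0.16, and 0.022 and 0.0025 with 1 mean per cell type). Without hippocampal neurons 1 the neuron libraries lay close together, at 130 ± 11.0 (SD, n = 3).

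miR-489 read 28 and 35 in astrocytes, 44 and 38 in oligodendrocytes, 76 and 164 in cortical neurons, 141 in hippocampal neurons 1 and 56 in hippocampal neurons 2. Cortical neurons 2 and hippocampal neurons 2 were above their limits and no glial library was. Its difference was 1.27 ± 0.45 with 4 libraries and 1.12 ± 0.37 with 3 (adjusted p = 0.12 and 0.20, and 0.022 and 0.006 with 1 mean per cell type). miR-322, of the miR-15/16 family, read 20 to 54 in the glia and 56 to 141 in the neurons, and miR-301a 61 to 76 and 80 to 204. Their differences were 1.07 and 0.74 with 4 libraries (adjusted p = 0.24 and 0.45) and 0.87 and 0.50 with 3 (0.41 and 0.55). miR-129-3p, miR-489, miR-539 and miR-322 were tested only because neuron libraries were above the limit, so the direction of these 4 was set by that filter.

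Among the miRNAs lower in the neurons, miR-204, known from the choroid plexus, retinal pigment epithelium and astrocytes, read 901 and 428 in astrocytes, 124 and 165 in oligodendrocytes, 66 and 67 in cortical neurons, 110 in hippocampal neurons 1 and 58 in hippocampal neurons 2. All 4 glial libraries were above their limits and above all neurons, and the astrocytes were far above the oligodendrocytes. The means were 75.2 ± 23.5 in neurons and 404 ± 357 in macroglia (SD, n = 4 each), with a log2 difference of -1.90 ± 0.58 (adjusted p = 0.07, and 0.0019 with 1 mean per cell type). It was -2.08 ± 0.62 without hippocampal neurons 1 (adjusted p = 0.16, and 1.9e-09 with 1 mean per cell type). Only hippocampal neurons 2 was above its limit among the neurons, so miR-204 reached the 2 libraries of the filter only with glial ones. The filter favoured this direction, and the p-values are no separate evidence for it. That also holds for miR-151-5p, miR-338-3p, miR-1944, let-7b and let-7g, each above the limit in 1 neuron library and in 3 or 4 macroglia libraries. In the comparison with 4 neuron libraries, miR-204 was called without oligodendrocytes 1 or 2 (-2.31 and -2.18, adjusted p = 0.049 and 0.048).

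miR-126-3p, the miRNA of endothelial cells, read 394 and 255 in astrocytes, 124 and 133 in oligodendrocytes, and 45, 52, 78 and 51 in the neurons. No neuron library was above its limit and every glial library was, with a difference of -1.70 ± 0.50 (adjusted p = 0.07, and 0.0019 with 1 mean per cell type). The difference was -1.84 ± 0.44 without hippocampal neurons 1 (adjusted p = 0.13, and 3.5e-09 with 1 mean per cell type). In the comparison with 4 neuron libraries it passed in 6 of 19 alternative settings, among them quantile normalisation (adjusted p = 0.0087) and leaving out oligodendrocytes 1 or 2 (0.049 and 0.048). miR-126-3p was tested only because glial libraries were above the limit, so its direction was set by the background filter. These p-values are therefore no separate evidence for that direction. On the gene panel described below, the endothelial genes Cd34 and Eng, also expressed by other cells, read 48 to 60 and 19 to 32 in macroglia and 2 to 28 and 2 to 17 in neurons, and Slco1a4 6 to 30 and 5 to 59. The part of endothelial RNA in the miR-126-3p values was not tested. miR-151-5p read 77 to 183 in macroglia and 16 to 67 in neurons, a difference of -1.52 ± 0.46 (adjusted p = 0.07), which passed without oligodendrocytes 1 or hippocampal neurons 2 (0.049 and 0.035) and was 0.04 with values raised to the limit. With hippocampal neurons 1 left out it was -1.28 ± 0.41 (adjusted p = 0.20).

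miR-338-3p, an oligodendrocyte miRNA, read 123 and 100 in astrocytes, 547 and 517 in oligodendrocytes, 118 and 60 in cortical neurons, 94 in hippocampal neurons 1 and 44 in hippocampal neurons 2. The oligodendrocytes stood above all other libraries and the astrocytes overlapped the neurons. The difference was -1.60 ± 0.57 with 4 libraries and -1.71 ± 0.63 with 3 (adjusted p = 0.12 and 0.25). miR-219, the other oligodendrocyte miRNA, read 106 and 158 in oligodendrocytes, 56 and 46 in astrocytes, 66 and 119 in cortical neurons, 376 in hippocampal neurons 1 and 65 in hippocampal neurons 2, and its highest value was in the library that stood apart.

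**Figure D2:**
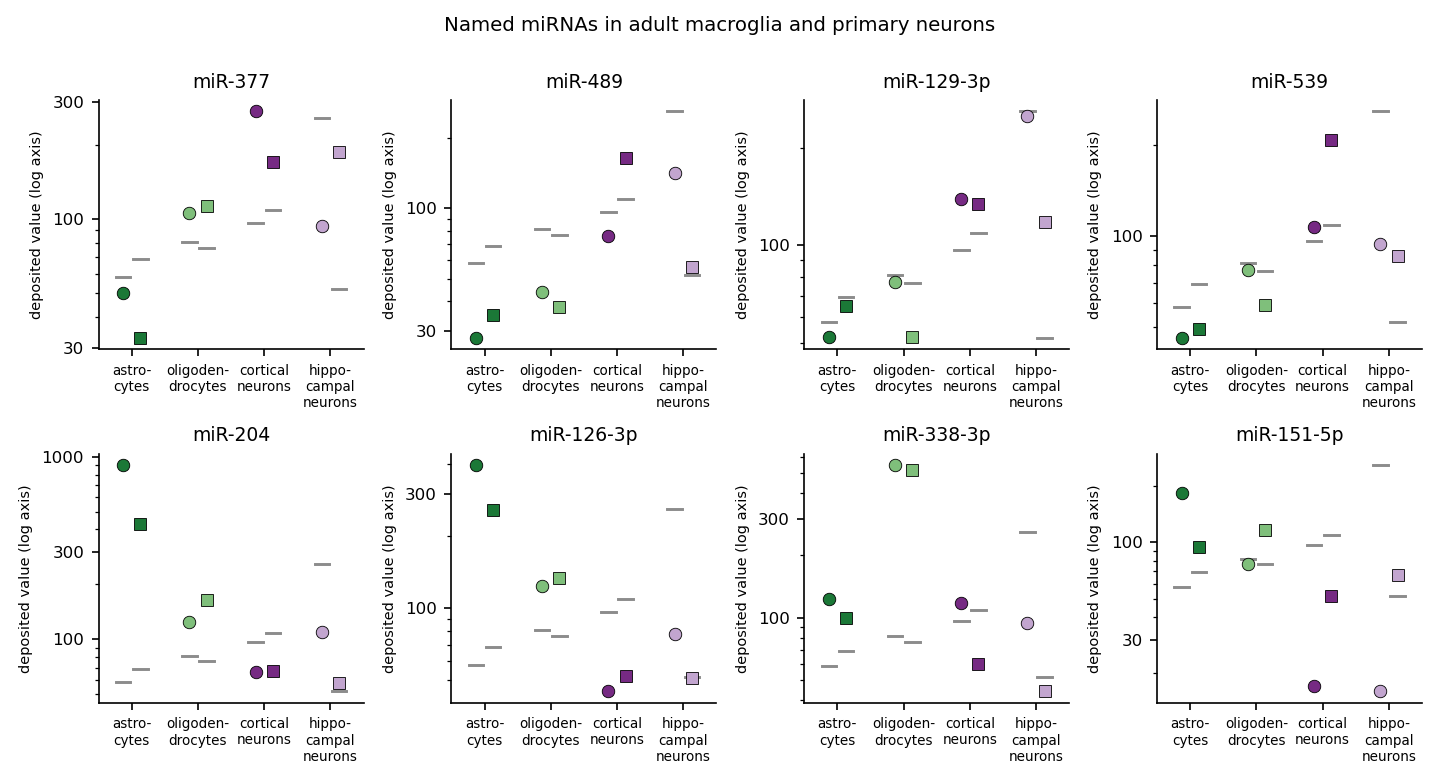
Deposited values (log axis) of 8 miRNAs in each library, circles for library 1 and squares for library 2, grey bars for each library's background limit. In the upper row the neurons tend to lie above the glia, though many glial values are under the limit, and in the lower row miR-204 and miR-126-3p are highest in astrocytes and miR-338-3p in oligodendrocytes.

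miR-125b-5p and miR-9 had the widest spread within the glia. miR-125b-5p read 6298 and 2298 in astrocytes, 213 and 440 in oligodendrocytes, 301 and 104 in cortical neurons, 94 in hippocampal neurons 1 and 894 in hippocampal neurons 2. The astrocytes were above all other libraries, and oligodendrocytes and neurons overlapped. The difference was -2.19 ± 0.98 with 4 neuron libraries and -1.79 ± 1.12 with 3 (adjusted p = 0.26 and 0.55).

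miR-9 read 2849 and 1011 in astrocytes, 86 and 54 in oligodendrocytes, 111 and 45 in cortical neurons, 16 in hippocampal neurons 1 and 905 in hippocampal neurons 2. Hippocampal neurons 2 was close to the lower astrocyte library, and the cortical neurons overlapped the oligodendrocytes. Its difference, which passed only without oligodendrocytes 2 among the single libraries left out (-2.54, adjusted p = 0.048), was -1.71 ± 0.83 with 4 neuron libraries and -1.0 ± 1.29 with 3 (adjusted p = 0.30 and 0.71). miR-99a, which lies in clusters with miR-125b and let-7c, read 426 and 190 in astrocytes, 44 and 47 in oligodendrocytes, 35 and 52 in cortical neurons, 16 in hippocampal neurons 1 and 123 in hippocampal neurons 2.

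**Figure D3:**
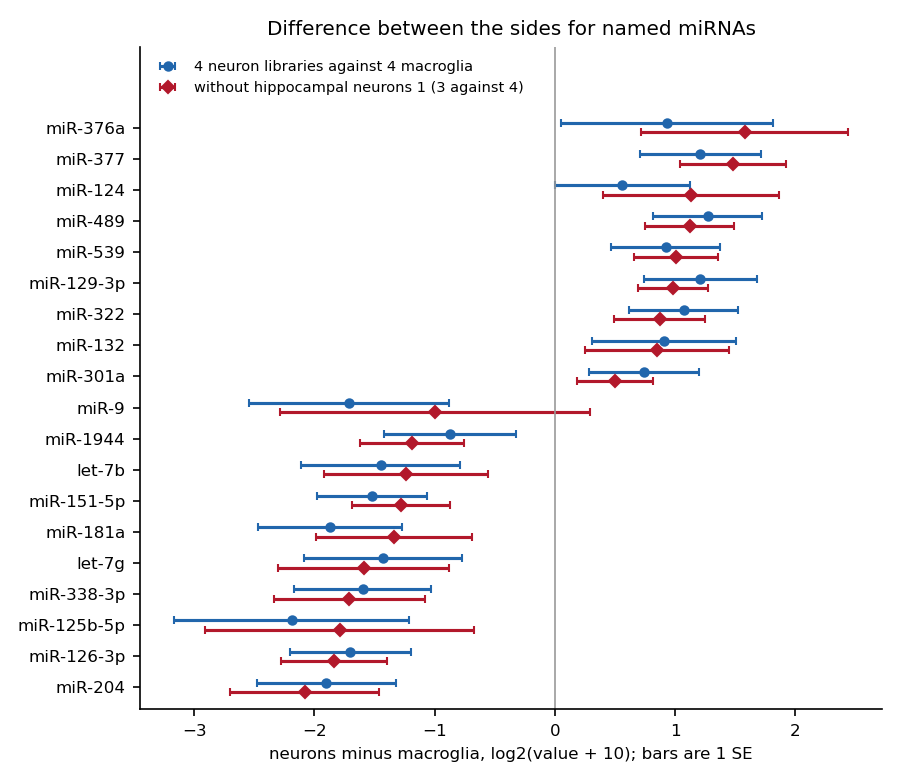
Difference of neurons minus macroglia in log2(value + 10) for 19 named miRNAs, with 1 SE from limma, for 4 neuron libraries (circles) and for 3 without hippocampal neurons 1 (diamonds). None of the 19 passed the adjusted threshold in either fit, and the sign was the same in both.

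The lists of related miRNAs were described over all their probes, measured above background or not. Of 24 neuronal probes, 8 were tested, and 20 of 24 had a positive difference with a median of 0.47, where 438 of all 566 probes were positive with a median of 0.35. The background limits of all neuron libraries except hippocampal neurons 2 were higher than those of the glia, and a positive sign was the rule over all probes. Among the probes of this list that were not tested, miR-137, known from neuronal maturation, was above the limit only in hippocampal neurons 2, at 60, and so was miR-218, a miRNA of motor and other projection neurons, at 213 there and 24 to 63 elsewhere. miR-128, abundant in brain, read 35 to 70 in macroglia and 55, 82, 141 and 109 in neurons.

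Of 62 probes of the Dlk1-Dio3 cluster, 10 were tested and 57 were positive (median 0.47), or 50 without hippocampal neurons 1 (median 0.31, against 392 of 566 and 0.17 for all probes). The number above the limit was 3 and 5 in astrocytes, 8 and 6 in oligodendrocytes, 6 and 7 in cortical neurons, 0 in hippocampal neurons 1 and 17 in hippocampal neurons 2. Of the 10 tested members, 0 were called with or without hippocampal neurons 1. With 1 mean per cell type, 1 was called higher with all 4 neuron libraries (miR-377), where 2.68% of all 112 were. The same fit called 5 without hippocampal neurons 1 (miR-376a, miR-377, miR-382, miR-136 and miR-539), where 12.5% of all 112 were, and miR-539 was tested only through neuron libraries.

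Of 9 let-7 probes, which share a seed in the members shown, 8 were tested and 0 had a positive difference with 4 neuron libraries (median -0.81, against 0.35 for all probes). let-7g read 418 and 279 in astrocytes, 417 and 280 in oligodendrocytes, 62 and 37 in cortical neurons, 172 in hippocampal neurons 1 and 458 in hippocampal neurons 2. The cortical neurons were below every glial library and hippocampal neurons 2 above every one. The difference was -1.43 ± 0.66 with 4 neuron libraries and -1.59 ± 0.71 without hippocampal neurons 1 (adjusted p = 0.26 and 0.41). It was -2.60 with both hippocampal libraries left out (adjusted p = 0.0096). Both cortical libraries were under their limits for let-7g, so in that fit it was tested only through glial libraries. The filter set its direction there, and that p is no separate evidence for it. Over the list, 2 of 9 were positive without hippocampal neurons 1 (median -0.33, against 0.17 for all probes).

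Of 13 astrocyte probes, 6 and 5 were above the limit in the astrocytes, 1 and 2 in the oligodendrocytes, 0 in both cortical libraries and in hippocampal neurons 1, and 5 in hippocampal neurons 2. Of the 13, 4 had a positive difference with 4 neuron libraries (median -0.28, against 0.35 for all probes) and 2 without hippocampal neurons 1 (median -0.50, against 0.17). The summed value of the list was 2082 and 1251 in astrocytes, 628 and 682 in oligodendrocytes, 540 and 573 in cortical neurons, 1082 in hippocampal neurons 1 and 655 in hippocampal neurons 2. Both probes of the endothelial list, the arms of miR-126, had a negative difference in either comparison. The summed value of 8 microglial and haematopoietic probes was 843 to 955 in macroglia, 1527 and 2420 in cortical neurons, 830 in hippocampal neurons 1 and 827 in hippocampal neurons 2. miR-155, induced in activated immune cells, read 361 to 519 in macroglia, 911 and 1415 in cortical neurons, 94 in hippocampal neurons 1 and 440 in hippocampal neurons 2. miR-142-5p read 181 to 296 in macroglia, 367 and 745 in cortical neurons, 219 in hippocampal neurons 1 and 232 in hippocampal neurons 2. Both were above the limit in every library except hippocampal neurons 1. As recovered counts, miR-142-5p was at 86 to 102 in macroglia, 106 and 100 in cortical neurons and 14 and 100 in hippocampal neurons. miR-155 was at 122 to 231 counts in macroglia, 263 and 190 in cortical neurons and 6 and 190 in hippocampal neurons. The value of 1 count was 1.99 to 2.96 in macroglia and 3.46 and 7.45 in cortical neurons. The part of this scaling in the higher cortical values was not tested. miR-150, of lymphocytes, read 50 to 105 in macroglia and 16 to 55 in neurons. The other 5 probes, for miR-142-3p, miR-223, miR-146a and the arms of miR-342, were at 7 to 74 in macroglia and 12 to 141 in neurons. Among these 5, only miR-342-3p in astrocytes 1, at 74, was above its library's limit. The 3 erythroid, 3 retinal and 1 liver probes were under the limit in all 8 libraries. The 5 stromal probes passed it in astrocytes 1 and cortical neurons 2, 1 probe in each.

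Hippocampal neurons 2 was next set against the 2 cortical libraries, 1 against 2, with the spread taken from the 11 libraries of the set other than hippocampal neurons 1. The hippocampal side has no replicate, and the fit assumes that it varies like the other cell types. The calls therefore compare these libraries, not hippocampal with cortical neurons at large. Over the 112 tested miRNAs, hippocampal neurons 2 correlated with cortical neurons 1 and 2 at 0.63 and 0.35. Its correlations were 0.72 and 0.70 with the astrocytes and 0.60 and 0.65 with the oligodendrocytes. The reason for this order was not tested. Of 112 miRNAs, 25 were called (22.3%), 17 higher (15.2%) and 8 lower (7.14%) in hippocampal neurons 2. In 33 and 54 of 112, in turn, it lay above (29.5%) or below (48.2%) both cortical libraries, 77.7% in all. With 1 library against 2, lying outside the pair is the more frequent outcome by chance alone, so these shares show no difference by themselves. Leaving out cortical neurons 1 gave 39 calls, 19 higher and 20 lower.

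Among the miRNAs higher in hippocampal neurons 2, miR-9 read 905 against 111 and 45, a log2 difference of 3.49 ± 0.47 (limma adjusted p = 3.6e-10). let-7g read 458 against 62 and 37 (3.01 ± 0.52, adjusted p = 1.6e-06), and let-7b 484 against 83 and 74 (2.48 ± 0.51, adjusted p = 6.7e-05). These 3, with let-7c (614 against 173 and 74) and miR-125b-5p (894 against 301 and 104), were called in all 10 alternative settings.

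The neuronal miR-124 was also higher, at 331 against 139 and 30 (2.14 ± 0.57, adjusted p = 0.0022), as was miR-132, at 544 against 263 and 74 (1.87 ± 0.48, adjusted p = 0.0017). Both lost the call with quantile normalisation and without cortical neurons 2, where miR-124 differed by 1.19 and miR-132 by 1.02 (adjusted p = 0.083 and 0.12). miR-376a read 1489 in hippocampal neurons 2 and 1724 and 283 in the cortical neurons, which overlapped, and did not pass (1.07 ± 0.57, adjusted p = 0.18). The other calls higher were let-7d, let-7i, miR-125a-5p, miR-181a, miR-20a+miR-20b, miR-22, miR-29a, miR-99a, miR-136 and miR-382.

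By list, 5 of 8 tested let-7 probes, 3 of 5 of the miR-99/100 and miR-125 group, 3 of 8 neuronal and 2 of 10 Dlk1-Dio3 probes were called higher, where 15.2% of all tested were. Over all probes of each list the medians were 1.69, 0.29, -0.19 and -0.33, against -0.47 for all 566. The let-7 members are near-identical in sequence, and cross-hybridisation between their probes was not tested.

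The miRNAs lower in hippocampal neurons 2 were led by miR-34c, at 889 against 3736 and 10566 (-2.81 ± 0.74, adjusted p = 0.0022, and 0.069 without the background filter). miR-34c alone made up 20.26% of the total in cortical neurons 2, 9.29% in cortical neurons 1, 2.57% in hippocampal neurons 2 and 0.08% in hippocampal neurons 1, and 3.89% to 7.38% in the macroglia. It was also the highest miRNA in the red pulp macrophage and microglia libraries of the set (5.26% to 10.56%). miR-205, an epithelial miRNA, and miR-543 were lower too, at 458 against 824 and 2375 and at 292 against 613 and 1057, without passing (-1.59 and -1.43, adjusted p = 0.063 and 0.072). Without cortical neurons 1 the differences were -2.35 and -1.82. In recovered counts, miR-205 was at 197 against 238 and 319, and miR-543 at 126 against 177 and 142. miR-34c was at 383 against 1080 and 1418 counts. The value of 1 count was 2.32 in hippocampal neurons 2 and 3.46 and 7.45 in the cortical neurons. The part of this scaling in the differences was not tested.

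The other 7 lower calls were miR-466c-5p, miR-467e, miR-466g, miR-297c, miR-30a, miR-30b and miR-547, several of them from the repeat-rich cluster of rodent miRNAs within the Sfmbt2 gene. miR-466c-5p read 21 in hippocampal neurons 2 against 73 and 112, miR-467e 46 against 104 and 238, and miR-466g 58 against 156 and 216. miR-467e did not pass without cortical neurons 2 (-1.03, adjusted p = 0.072). The highest viral probe read 58 in hippocampal neurons 2 and 107 and 119 in the cortical neurons, so most of these values were near background. The mean viral value was 28.3 in hippocampal neurons 2 and 46.0 and 49.8 in the cortical libraries, whose recovered totals were 14963, 11606 and 7007. The part of depth and background in these calls was not tested.

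**Figure D4:**
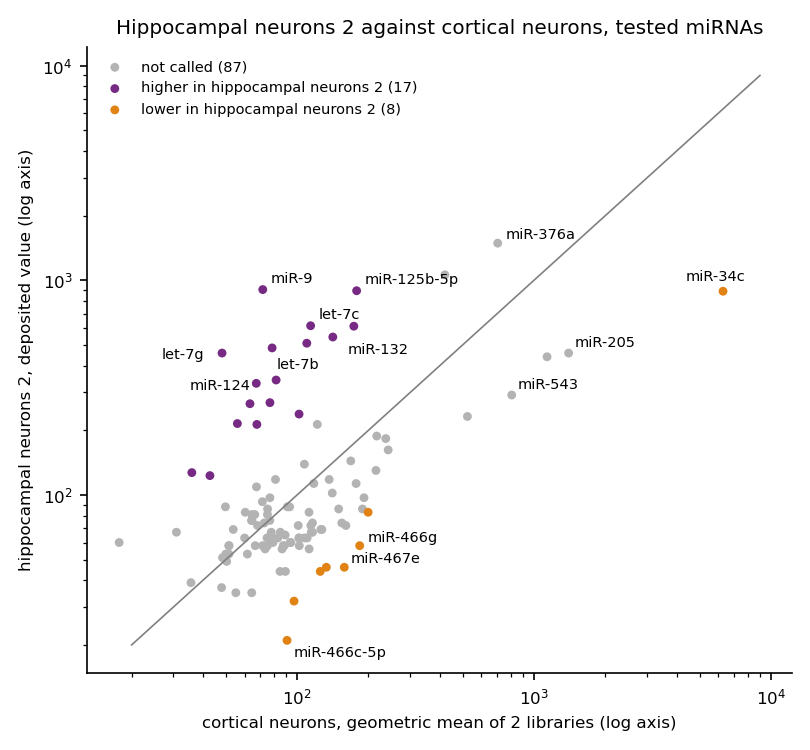
Deposited value in hippocampal neurons 2 (vertical, log axis) against the geometric mean of value + 10 over 2 cortical libraries, less 10 (horizontal, log axis), for 112 tested miRNAs, with the line of equality. The 17 higher calls stand above the line with miR-9 and let-7g farthest from it, and miR-34c lies far below it at the right.

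The same cell types carry 2 libraries each on the study's MG400 panel of 400 genes, which gives a second check of the labels. Whether they are the same RNA as the miRNA libraries is not stated. There the 2 hippocampal libraries correlated at 0.98 and the cortical pair at 0.89 (log2 values of 400 genes). With 4 neuron libraries against 4, limma called 112 of 400 genes (28%), 39 higher (9.75%) and 73 lower (18.2%) in the neurons. The neurons were above all macroglia for 41 genes (10.2%) and below all for 84 (21%). Quantile normalisation gave 57 higher and 41 lower, so the split between directions depends on the scaling. Leaving out cortical neurons 1, hippocampal neurons 1 or hippocampal neurons 2 gave 45, 41 and 55 calls.

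Of 16 neuronal genes on the panel, 4 were called higher and 1 lower, where 9.75% and 18.2% of all 400 genes were. Basp1, a growth cone protein, read 162 and 313 in astrocytes, 29 in both oligodendrocyte libraries, 1683 and 809 in cortical and 1777 and 1480 in hippocampal neurons (log2 difference 3.85 ± 0.71, adjusted p = 0.0095). All neurons were above all glia. Rtn1, a reticulon of neurons, read 17 to 383 in macroglia and 526 to 1199 in neurons (3.28 ± 0.89, adjusted p = 0.027), but did not pass without either oligodendrocyte, either hippocampal or the first cortical library (2.68 to 3.22, adjusted p = 0.056 to 0.073).

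Unc13a, which primes synaptic vesicles, read 7 to 100 in macroglia and 124 to 224 in neurons (2.36 ± 0.60, adjusted p = 0.021). Nefl, the neurofilament light chain, read 4 to 42 in macroglia, 133 and 35 in cortical and 243 and 346 in hippocampal neurons (2.73 ± 0.67, adjusted p = 0.021), and cortical neurons 2 lay within the range of the glia. Nefl did not pass without cortical neurons 1 or either hippocampal library (2.33 to 2.76, adjusted p = 0.055 to 0.063). Ncam1, a neural adhesion molecule also made by glia, was the gene called lower, at 766 to 1686 in macroglia and 277 to 426 in neurons (-1.74 ± 0.36, adjusted p = 0.012). The synaptic vesicle gene Sv2a read 998 and 1051 in oligodendrocytes and 214 to 289 in neurons. Ccnd1, the cyclin D1 of proliferating cells, read 6 to 16 in macroglia and 77 to 239 in neurons (2.76 ± 0.34, adjusted p = 0.0016).

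Of 8 astrocytic genes 3 were called lower in the neurons, and of 7 oligodendrocytic genes 4, where 18.2% of all 400 genes were. Gpr37l1, an astrocyte receptor, read 3378 and 2716 in astrocytes, 136 and 125 in oligodendrocytes and 5 to 35 in neurons (-4.80 ± 1.11, adjusted p = 0.016). Slc1a3, the glutamate transporter of astrocytes, read 18602 and 14709 in astrocytes, 440 and 410 in oligodendrocytes and 417 to 1449 in neurons, so neurons overlapped the oligodendrocytes (adjusted p = 0.40). Enpp2, the autotaxin of oligodendrocytes, read 12798 and 14429 in oligodendrocytes, 374 and 240 in astrocytes and 21 to 38 in neurons (-5.73 ± 1.32, adjusted p = 0.016), and Omg, a myelin protein, 554 to 1475 in macroglia and 48 to 230 in neurons (-3.07 ± 0.50, adjusted p = 0.0053). Gpr37l1 and Enpp2 just missed the threshold without cortical neurons 1 (adjusted p = 0.051 for both) or hippocampal neurons 1 (0.057 and 0.056), and Gpr37l1 without hippocampal neurons 2 (0.051).

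Markers of other cells were also measured. The summed value of 13 microglial genes was 169 to 175 in astrocytes, 813 and 895 in oligodendrocytes and 80 to 250 in neurons, against 40922 and 33247 in microglia. P2ry12, a receptor of microglia, read 88 and 96 in oligodendrocytes, 23 and 27 in astrocytes and 4 to 14 in neurons. Ttr, the transthyretin of the choroid plexus, read 1415 and 1524 in oligodendrocytes, 108 and 88 in astrocytes and 10 to 24 in neurons, whereas miR-204, known from the choroid plexus, was highest in the astrocytes. The part of these cells in the miRNA differences was not tested.

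**Figure D5:**
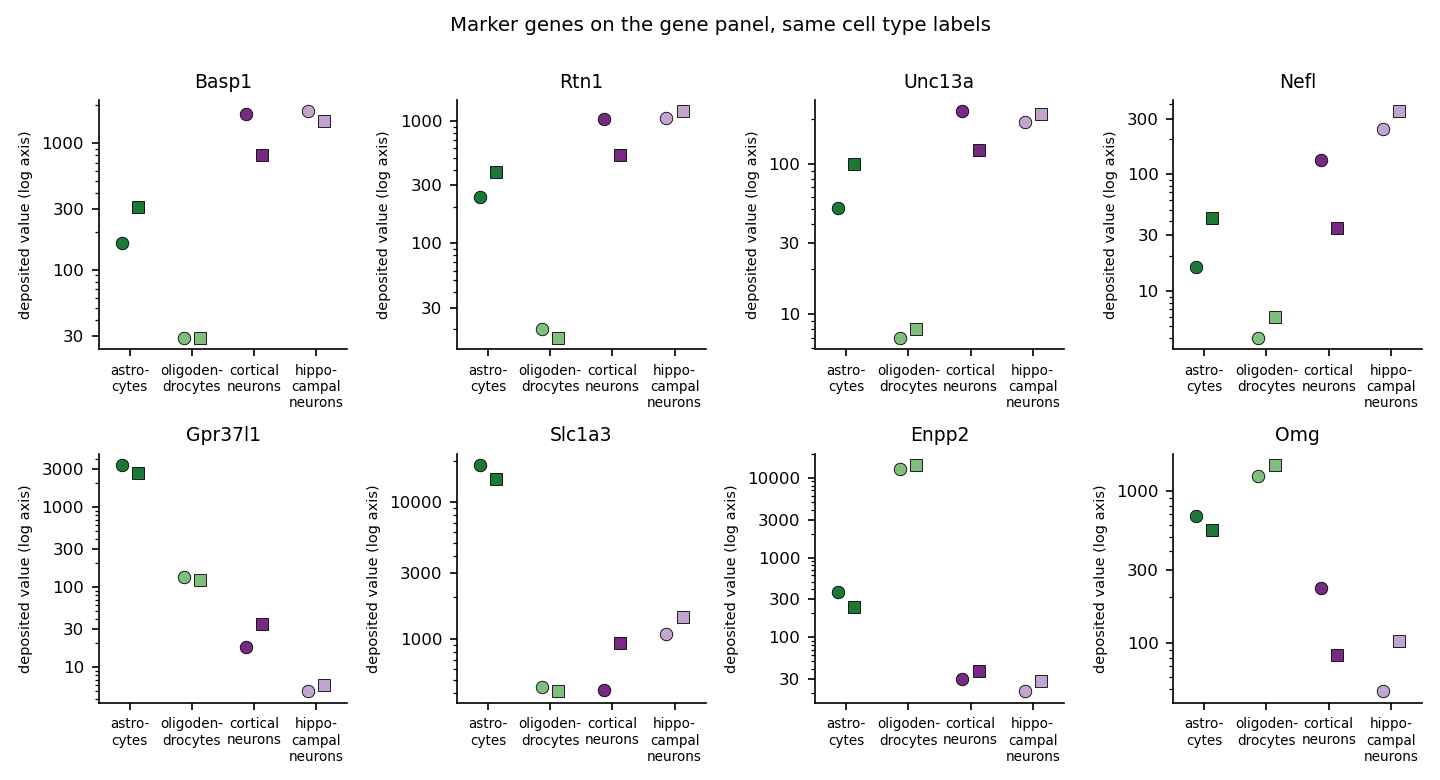
Deposited gene panel values (log axis) of 4 neuronal genes (upper row) and 2 astrocytic and 2 oligodendrocytic genes (lower row) in 2 libraries of each cell type, circles for library 1 and squares for library 2. Basp1, Rtn1 and Unc13a are above all glia in every neuron library, and cortical neurons 2 is the lowest neuron library for all 4 neuronal genes.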

How the data were processed

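Groups followed the sample labels. The values the authors deposited for both nCounter tables are scores, meaning barcode counts scaled by a library factor and rounded to whole numbers, as read from the values. The basis of that factor is not stated in the labels or headers. The miRNA table also holds 24 immune libraries as deposited normalised signal, which were not used. Dividing by the value of 1 count (1.99 to 15.68) gave whole numbers for 99.8% to 100% of values within the rounding. For the tests, log2(value + 10) was fitted with limma 3.58.1 in R 4.3.3 (lmFit, eBayes with a trend, Benjamini-Hochberg over all tested rows), and 3 label markers with an exact permutation test over libraries (70 splits). On this scale changes of low miRNAs are understated. The limit was the mean plus 2 SD of 33 viral probes, and a miRNA above it in at least 2 of 8 libraries was tested. The members and lists were chosen with earlier results of these data known, and the gene panel and its lists were added after seeing the files, its lists from the gene names. The named miRNAs were the label markers, the 12 largest calls each way of either comparison of the sides (there were none), the 6 largest differences each way between hippocampal and cortical neurons, list members, and those named for their values. Alternatives were other pseudocounts, filters, scalings, weights, cell type means, the replicate block and leaving out each library. The fits were tested on simulated data. miRNA sequences and gene spans are RefSeq's on GRCm38.p6.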

Additional observations from a re-analysis of the deposited data

Results flagged for a closer look

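In 68 groups of 4 libraries screened for a library far from the other 3, 1 was found. Chance gives about 1 in 20 groups, so the screen found no more than chance would. The group was let-7b in the neurons, at 484 in hippocampal neurons 2 and 74 to 83 in the others (gap over range 0.943). A further 8 miRNAs were flagged because the cortical neurons and hippocampal neurons 2 lay on opposite sides of the macroglia mean. For each, the difference between the neurons, 1 library against 2, passed the limma test. All 8 were among the largest differences each way, and they are not a full count of this order. let-7d, called higher but not flagged, read 611 in hippocampal neurons 2, 139 and 216 in cortical neurons and 263 to 462 in macroglia. The differences of hippocampal neurons 2 minus cortical neurons were 3.49 for miR-9, 3.01 for let-7g, 2.48 for let-7b and 2.33 for let-7c, with cortical neurons below and hippocampal neurons 2 above macroglia (miR-9 at -2.17 and 1.32). They were -2.81 for miR-34c, -1.70 for miR-466c-5p, -1.59 for miR-467e and -1.51 for miR-466g, with cortical neurons above and hippocampal neurons 2 below macroglia (miR-34c at 1.62 and -1.19). The adjusted p ran from 3.6e-10 to 0.0093, and whether each side differed from macroglia was not part of that test.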

How the results depend on the processing

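For the 4 against 4 comparison, the count of calls was 0 and became 3 with probes above background in at least 4 of 8 libraries, 1 with quantile normalisation, 2 with array weights and 12 with 1 mean per cell type, and leaving out 1 library gave 0 to 4, the 4 without hippocampal neurons 2 and 3 without either oligodendrocyte library. Without hippocampal neurons 1 it was 0, with 1 under the stricter filter, 1 with quantile normalisation, 29 with 1 mean per cell type, and 0 to 1 on leaving out a further library. Quantile normalisation moved the median difference of all tested miRNAs from 0.26 to -0.13. Numbers did not pair the libraries (correlations of deviations -0.52 to 0.12), and with the replicate block 0 were called in both. Hippocampal neurons 2 against cortical neurons gave 25 calls, 78 with values raised to the background limit (15 higher, 63 lower; its own limit is the lower one), and 20 to 39 on leaving out a cortical library, the 39 without cortical neurons 1. On leaving out a library the exact test's value for miR-124 ran from -0.11 to 1.13, the negative one without hippocampal neurons 2, as in limma (-0.11), and that for miR-132 from 0.51 to 1.42, the latter without cortical neurons 2 (exact p = 0.029). miR-151-5p turned to 0.04 with values raised to the limit, and Slc1a3 to 0.29 with quantile normalisation. The gene panel gave 112 calls, 225 with 1 mean per cell type, 75 with the replicate block and 41 to 101 on leaving out a library: 45 without cortical neurons 1, 41 without hippocampal neurons 1 and 55 without hippocampal neurons 2. The cause of these changes was not tested. Low totals and high viral values limit what hippocampal neurons 1 and cortical neurons 2 can show.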
